A study of Mus musculus with 7 samples.

Results

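The genes described here were 10 genes of macrophages that clear red cells and recycle their iron: *Spic*, *Slc40a1*, *Cd163*, *Vcam1*, *Cd5l*, *Adgre1*, *Mrc1*, *Csf1r*, *C1qa*, and *C1qb*. They were chosen by exact gene symbol from the 55401 genes of the count table, and all 10 were among the 16429 genes that passed the filter on low counts. RNA-Seq was performed on knee tissue of male C57BL/6J mice. The mice underwent DMM, in which surgery on the medial meniscus destabilizes the joint and leads to posttraumatic OA, at 10 weeks of age, and the tissue was collected 2 weeks later from the operated right knee. By the sample labels, 4 samples were WT and 3 were *Trpc1*-/-, whereas the Methods give 3 and 4, and the labels were used. Mice of the *Trpc1*-/- group carried the *Trpc1* tm1Lbi allele, in which exon 8 is missing and the transcript meets a premature stop codon. This deletion is present in the whole body, so it is not limited to cartilage or to macrophages. WT controls were matched for age and sex and came from the same colony. All 7 samples came from knees after DMM, with none from the sham-operated left knees, and each pooled 2 to 3 knees. The labels call the tissue cartilage, but the Methods add subchondral bone, and transcripts of cartilage, bone, and marrow cells were all abundant (values given after those of the macrophage genes).

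Macrophages at the center of erythroblastic islands hold maturing erythroblasts through adhesion molecules, engulf the nuclei that these cells expel, and return iron to them. In spleen and bone marrow, macrophages of this kind also digest aged red cells, and heme released from the hemoglobin drives production of the transcription factor SPIC. Heme is opened by heme oxygenase, and the iron is stored in ferritin or exported through ferroportin, the product of *Slc40a1*.

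RefSeq promoter sequences (GRCm38.p6) were given for 5 of the 10 genes: *Spic*, *Cd163*, *Cd5l*, *Mrc1*, and *C1qb*. The 250 bases before the start are shown for *Spic*, the transcription factor of the program, for *Cd5l*, whose difference between genotypes was the largest of the 10 genes, and for *C1qb*, whose groups overlapped. They are written 5′ to 3′ on the strand of the gene, with matches to the searched motifs in capitals. *Spic* lies at chr10:88683024-88683273 on the minus strand, *Cd5l* at chr3:87357631-87357880 on the plus strand, and *C1qb* at chr4:136886201-136886450 on the minus strand.
Spic: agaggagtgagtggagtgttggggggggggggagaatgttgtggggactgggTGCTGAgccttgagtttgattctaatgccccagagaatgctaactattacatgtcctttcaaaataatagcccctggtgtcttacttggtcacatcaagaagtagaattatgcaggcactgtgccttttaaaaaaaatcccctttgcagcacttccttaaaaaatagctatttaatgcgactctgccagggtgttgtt
Cd5l: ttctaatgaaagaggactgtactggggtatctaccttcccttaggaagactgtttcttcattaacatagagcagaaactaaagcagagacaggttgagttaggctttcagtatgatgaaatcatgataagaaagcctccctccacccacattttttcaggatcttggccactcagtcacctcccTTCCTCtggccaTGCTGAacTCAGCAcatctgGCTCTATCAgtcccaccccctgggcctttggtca
C1qb: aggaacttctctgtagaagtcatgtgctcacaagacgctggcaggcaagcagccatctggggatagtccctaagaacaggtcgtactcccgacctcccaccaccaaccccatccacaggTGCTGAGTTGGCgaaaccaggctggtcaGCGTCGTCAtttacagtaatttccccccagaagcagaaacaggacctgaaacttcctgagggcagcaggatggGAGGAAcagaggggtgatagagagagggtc

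Both strands were searched for the PU box GAGGAA, read by factors of the family of PU.1 and SPIC, the MAF site TGCTGA, the antioxidant response element TGANNNNGC, and the NF-kB motif. The PU box was found in 3 of the 5 promoters, those of *Mrc1*, *Cd5l*, and *C1qb*, and in 23.3% of all 32851 promoters. A MAF site was present in 3 of the 5, those of *Cd5l*, *C1qb*, and *Spic*, against 16.1% of all promoters. The antioxidant response element was present in 2 of the 5, *Cd5l* and *C1qb*, against 35.2%. In *C1qb*, a match to this element overlapped the MAF site, so that the capitals run together there. The NF-kB motif was found in 0 of the 5 and in 0.356% of all promoters, and the *Cd163* promoter held no match to any of the 4 motifs. The *Spic* promoter held 1 match, a MAF site from -198 to -193, and the *Cd5l* promoter held 4, all between -66 and -26, counted from the RefSeq start. This start lies 1992 bases inside the *Spic* gene as GENCODE M21 places it and coincides with the GENCODE start for *Cd5l*. These are matches of letters, and binding was not measured.

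Libraries differed in depth, with between 52142451 and 118254070 counts on genes per sample. WT replicate 1 stood apart: it was the shallowest, 21.3% of its counts came from the mitochondrial ribosomal RNA genes mt-Rnr1 and mt-Rnr2, against 13.2% to 16.5% in the other 6 samples, and it was the lowest of the 7 samples for 9 of the 10 macrophage genes. Results are therefore given with and without it. *Trpc1* itself, counted over the whole gene and not over the deleted exon, was at 4.82, 4.54, 4.76, and 4.32 CPM (counts scaled to a common library size, here with TMM factors for library composition) in WT replicates 1 to 4 and at 3.34, 3.78, and 3.03 CPM in *Trpc1*-/- replicates 1 to 3. The groups did not overlap and were ordered as the labels say, with a logFC of -0.44 ± 0.13 (SE) and an adjusted p of 0.407 in edgeR. In DESeq2 the adjusted p lay just above the threshold of 0.05. Positive logFC (log2 fold change) is higher in *Trpc1*-/- throughout.

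The macrophage genes were detected well in every sample, from 458 counts for *Spic* in WT replicate 1 to 41820 counts for *Vcam1* in *Trpc1*-/- replicate 1. The mean of *Trpc1*-/- samples was the higher one for all 10 genes, from 1.62-fold for *Cd5l*, 1.46-fold for *Spic*, and 1.41-fold for *Slc40a1* down to 1.00-fold for *Csf1r*. For *Spic*, *Slc40a1*, *Cd163*, *Vcam1*, *Cd5l*, and *Mrc1*, each *Trpc1*-/- sample lay above each WT sample, whereas the groups overlapped for *Adgre1*, *Csf1r*, *C1qa*, and *C1qb*. In edgeR's quasi-likelihood test, 0 of the 10 passed an adjusted p of 0.05, as did 0% of all 16429 tested genes, with 1643 genes at an unadjusted p under 0.05. DESeq2 called 1 of the 10, *Slc40a1*, and 1.79% of the tested genes (294), while limma-voom called 0 of the 10. The tissue was measured in bulk. A higher level of these transcripts from more macrophages, from more RNA per macrophage, and from other cells that express them therefore cannot be told apart. The labels do not state litters or surgery days, so p values measure the spread between these samples. They do carry mouse numbers: WT replicates 3 and 4 have numbers above 1700, and the other 5 samples, 2 WT and all 3 *Trpc1*-/-, have numbers below it that lie close together, so that the higher block holds no *Trpc1*-/- sample.

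**Figure D1:**
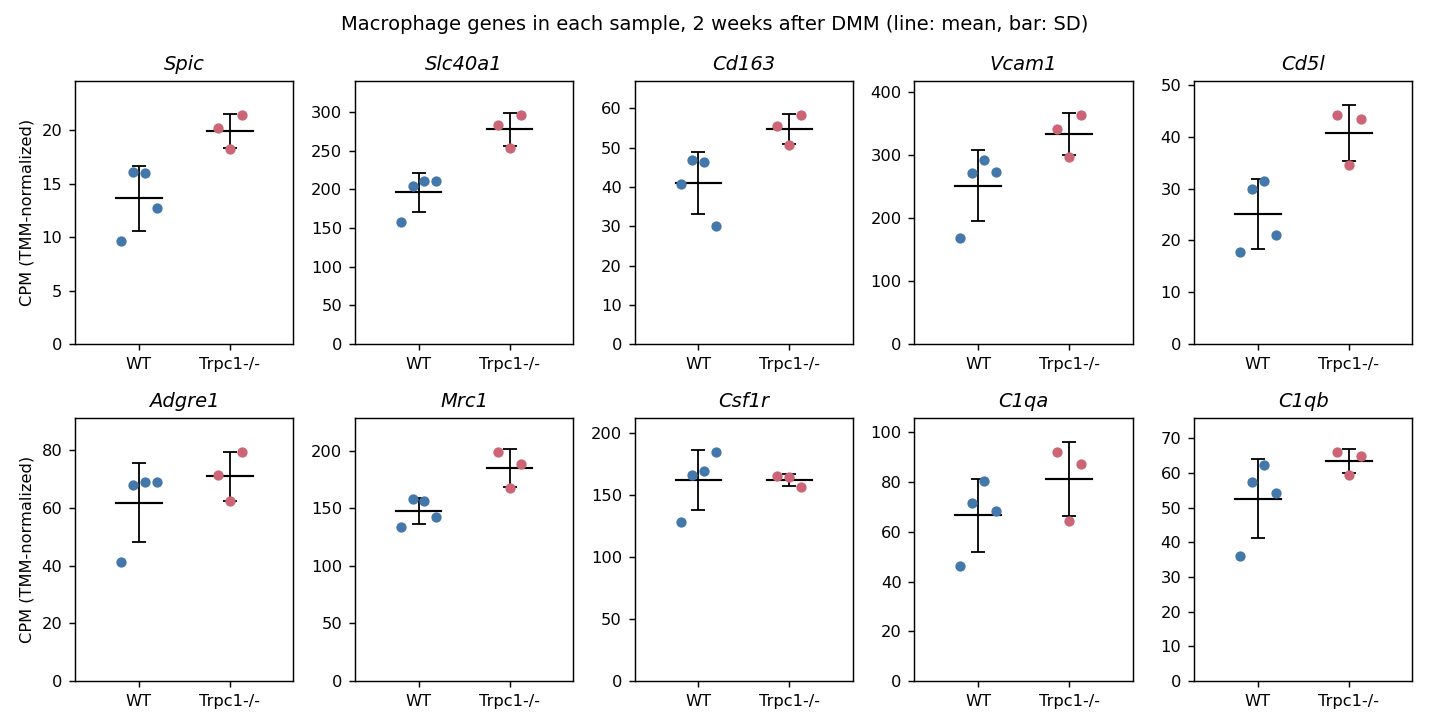
CPM (axis from 0) of each of the 10 genes in the 4 WT and 3 *Trpc1*-/- samples, with 1 point per sample in the order of the replicate numbers, a line at each group mean, and a bar of 1 SD to each side. For 6 genes the *Trpc1*-/- points lie above all WT points, for 4 they overlap, and WT replicate 1 is the lowest point of 9 genes.

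At the head of this group is *Spic* (ENSMUSG00000004359, chr10:88674772-88685015, GRCm38), which encodes the factor needed for the development of red pulp and other iron-recycling macrophages. It measured 9.63, 16.1, 16.0, and 12.8 CPM in WT replicates 1 to 4 and 20.2, 18.2, and 21.4 CPM in *Trpc1*-/- replicates 1 to 3. All *Trpc1*-/- samples were above all WT samples, with the WT values spread more widely than those of *Trpc1*-/-. Group means were 13.6 ± 3.08 CPM (SD, n = 4) and 19.9 ± 1.60 CPM (SD, n = 3), a logFC of 0.55 ± 0.18 (SE) with a 95% interval of 0.14 to 0.95. The adjusted p was 0.428 in edgeR and 0.133 in DESeq2, and without WT replicate 1 the logFC was 0.41 with an adjusted p of 0.140 in edgeR and 0.0199 in DESeq2. Without that sample DESeq2 called 892 genes in all, against 294 with every sample.

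*Slc40a1* (ENSMUSG00000025993, chr1:45908068-45926523) encodes ferroportin, the exporter that returns iron to plasma and the last step of recycling. Its levels were 158, 205, 211, and 211 CPM in the WT samples and 283, 253, and 296 CPM in the *Trpc1*-/- samples. WT replicates 2 to 4 were close together, WT replicate 1 was well below them, and the groups did not overlap. The mean went from 196 ± 25.5 CPM (SD, n = 4) in WT to 277 ± 21.6 CPM (SD, n = 3) in *Trpc1*-/-, with a logFC of 0.50 ± 0.13 (SE) and a 95% interval of 0.21 to 0.79. This was the gene called by DESeq2, at an adjusted p of 0.0151, while edgeR gave 0.395. Without WT replicate 1 the logFC was 0.41, at an adjusted p of 0.0864 in edgeR and 8.2e-06 in DESeq2. DESeq2 called *Slc40a1* in 4 of the 7 fits that each left out 1 sample.

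*Cd163* (ENSMUSG00000008845, chr6:124304656-124330527), the scavenger receptor for hemoglobin bound to haptoglobin, was at 40.6, 46.9, 46.3, and 30.1 CPM in WT and at 55.4, 50.6, and 58.2 CPM in *Trpc1*-/-. It was the member whose lowest sample was WT replicate 4 and not WT replicate 1. The logFC was 0.42 ± 0.15 (SE, 95% interval 0.06 to 0.77), with an adjusted p of 0.455 in edgeR and 0.230 in DESeq2, and it was 0.41 without WT replicate 1. Group means were 41.0 ± 7.78 CPM (SD, n = 4) and 54.8 ± 3.82 CPM (SD, n = 3). *Cd163* was called in 0 of the 7 DESeq2 fits with a sample left out.

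*Vcam1* (ENSMUSG00000027962, chr3:116109949-116129688) encodes the adhesion molecule by which the central macrophage binds integrin α4β1 on erythroblasts, and it is also made by endothelial and stromal cells. It was at 168, 271, 292, and 272 CPM in WT and at 341, 297, and 363 CPM in *Trpc1*-/-. The gap between the groups was narrow, with the highest WT sample at 292 and the lowest *Trpc1*-/- sample at 297 CPM. The logFC was 0.41 ± 0.19 (SE) with a 95% interval of -0.03 to 0.86, and the adjusted p was 0.511 in edgeR and 0.341 in DESeq2. Leaving out WT replicate 1 lowered the logFC to 0.26, at an adjusted p of 0.208 in edgeR.

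*Cd5l* (ENSMUSG00000015854, chr3:87357881-87371073) encodes AIM, a secreted scavenger protein made by macrophages and controlled by the nuclear receptor LXRα. It was at 17.7, 30.0, 31.5, and 21.1 CPM in WT and at 44.1, 34.5, and 43.5 CPM in *Trpc1*-/-. WT samples fell into a lower pair, replicates 1 and 4, and a higher pair, replicates 2 and 3, all of them below the *Trpc1*-/- samples. Its mean of 25.1 ± 6.70 CPM (SD, n = 4) in WT and 40.7 ± 5.37 CPM (SD, n = 3) in *Trpc1*-/- gave the highest logFC of the 10 genes, 0.70 ± 0.21 (SE, 95% interval 0.22 to 1.18). The adjusted p was 0.408 in edgeR and 0.0716 in DESeq2. Without WT replicate 1 the logFC was 0.56, at an adjusted p of 0.166 in edgeR and 0.0142 in DESeq2.

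*Mrc1* (ENSMUSG00000026712, chr2:14229392-14332057), the mannose receptor CD206 of tissue macrophages, was at 134, 158, 157, and 143 CPM in WT and at 199, 167, and 189 CPM in *Trpc1*-/-. The groups did not overlap, and the WT spread, relative to the mean, was smaller than for the other 9 genes. Means of 148 ± 11.5 CPM (SD, n = 4) and 185 ± 16.1 CPM (SD, n = 3) gave a logFC of 0.32 ± 0.10 (SE, 95% interval 0.09 to 0.56). The adjusted p was 0.410 in edgeR and 0.0693 in DESeq2, and the logFC without WT replicate 1 was 0.28. In DESeq2, *Mrc1* was called without WT replicate 1 (adjusted p = 0.0321) and without *Trpc1*-/- replicate 2 (adjusted p = 0.0195).

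For the other 4 genes, which mark macrophages more generally, the groups overlapped. *Adgre1* (ENSMUSG00000004730, chr17:57358691-57483527), which encodes the surface marker F4/80, was at 41.3, 68.1, 69.2, and 69.0 CPM in WT and at 71.3, 62.3, and 79.4 CPM in *Trpc1*-/-. *Trpc1*-/- replicate 2 lay below 3 of the 4 WT samples, which were nearly level with each other. The logFC was 0.20 ± 0.19 (SE, 95% interval -0.24 to 0.64) with an adjusted p of 0.704 in edgeR, and it was 0.04 without WT replicate 1.

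*Csf1r* (ENSMUSG00000024621, chr18:61100598-61132149) encodes the receptor for CSF1 and IL-34, on which most macrophages depend for survival, and is also read in monocytes. It was at 128, 166, 169, and 185 CPM in WT and at 165, 165, and 156 CPM in *Trpc1*-/-. The *Trpc1*-/- samples lay close together within the WT range, and both means were 162 CPM, with an SD of 23.8 (n = 4) in WT and 4.97 (n = 3) in *Trpc1*-/-. The logFC was 0.00068 with a 95% interval of -0.29 to 0.29 (edgeR adjusted p = 0.998). It was -0.10 without WT replicate 1, and its sign also turned with upper-quartile scaling.

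The genes of complement C1q, made in tissue chiefly by macrophages, lie near each other on chromosome 4. *C1qa* (ENSMUSG00000036887, chr4:136895917-136898803) was at 46.2, 71.7, 80.3, and 68.3 CPM in WT and at 92.1, 64.2, and 87.4 CPM in *Trpc1*-/-. *C1qb* (ENSMUSG00000036905, chr4:136880129-136886187) was at 36.2, 57.4, 62.4, and 54.4 CPM in WT and at 66.1, 59.5, and 65.1 CPM in *Trpc1*-/-. For both genes *Trpc1*-/- replicate 2 fell within the WT range, while the other two *Trpc1*-/- samples were above it. The logFC was 0.29 ± 0.20 (SE) for *C1qa* and 0.27 ± 0.17 (SE) for *C1qb*, with adjusted p of 0.619 and 0.590 in edgeR, and without WT replicate 1 the values were 0.14 and 0.13.

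**Figure D2:**
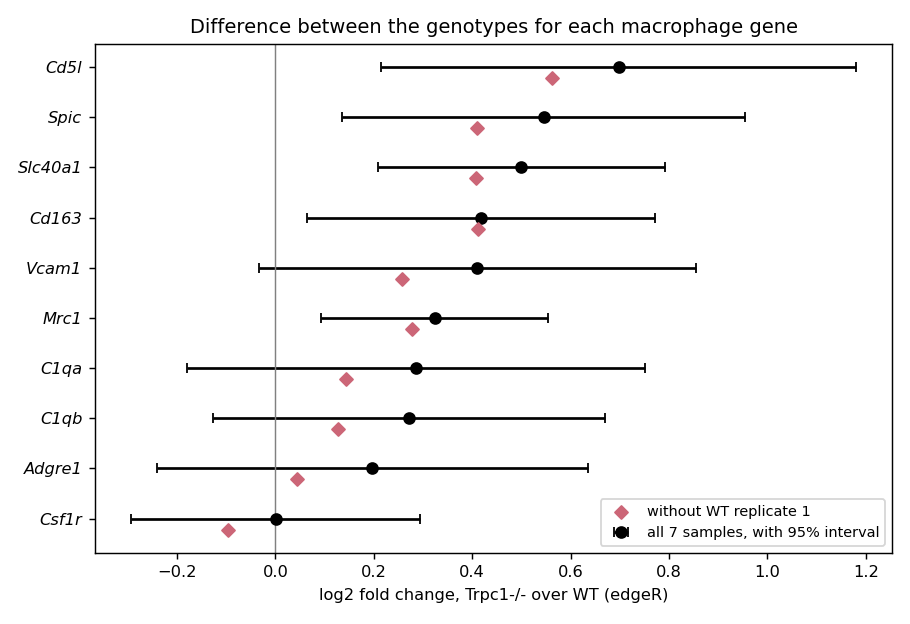
LogFC of each gene (*Trpc1*-/- over WT, edgeR) with its 95% interval from all 7 samples (black), and the logFC without WT replicate 1 (diamonds). The intervals lie above 0 for 5 genes, *Cd5l*, *Spic*, *Slc40a1*, *Cd163*, and *Mrc1*, and *Csf1r* sits at 0.

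Read against the table as a whole, 6 of the 10 genes did not overlap and were higher in *Trpc1*-/-, where 7.15% of tested genes were of that kind. At an unadjusted p under 0.05 in edgeR, 5 of the 10 were higher, against 4.51% of tested genes. The logFC was above 0 for 10 of the 10, against 48.1%, and its median was 0.37 over the 10 genes and -0.0088 over all tested genes. These genes share samples and cells, so their directions are not independent of each other. They were also chosen with earlier results of these data known, so the shares are a description and not a test. Leaving out a sample cannot make groups overlap that are apart, so the 6 genes above stay apart without WT replicate 1 by construction. Without that sample 11.4% of tested genes did not overlap and were higher in *Trpc1*-/-, and the median logFC of the 10 genes was 0.27. In that fit edgeR called 0 of the 10 genes and 0.320% of those tested (52 genes). DESeq2 without WT replicate 1 called 4 of the 10, *Spic*, *Slc40a1*, *Cd5l*, and *Mrc1*, and 892 of the 16242 genes tested there. With CPM taken from the library total and no TMM scaling, the genes without overlap were 3, *Spic*, *Slc40a1*, and *Cd5l*, against 1.91% of tested genes and the groups overlapped for *Cd163*, *Vcam1*, and *Mrc1*. With DESeq2 size factors in place of TMM the same 6 genes did not overlap, against 7.43% of tested genes. *Trpc1*-/- replicate 2 was the lowest sample of its group for 9 of the 10 genes, and without it 9 of the 10 (all but *Csf1r*) did not overlap, against 15.0% of tested genes. Leaving out the lowest sample of the higher group can only move the groups apart, so the rise from 6 to 9 follows from this choice of sample.

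Among the 5 samples with mouse numbers below 1700, 2 WT and 3 *Trpc1*-/-, the median logFC of the 10 genes was 0.45. The genes with overlapping groups had higher logFC there, at 0.37 for *Adgre1*, 0.46 for *C1qa*, 0.44 for *C1qb*, and 0.14 for *Csf1r*, against 0.20, 0.29, 0.27, and 0.00068 over all 7 samples. *Spic*, *Slc40a1*, *Vcam1*, and *Cd5l* were at 0.63, 0.61, 0.60, and 0.77, *Mrc1* at 0.34, and *Cd163* at 0.32. EdgeR called 0 of the 10 in this fit, as it did 0 of all tested genes, and WT replicate 1 made up 1 of its 2 WT samples. In these samples 7 of the 10 genes did not overlap, the 6 named above and *C1qb*, against 17.1% of tested genes. A subset of the 7 samples could not make those 6 overlap.

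To describe the recycling genes relative to general macrophage transcripts, each was divided by *Csf1r* and by *Adgre1* in the same sample. The ratio to *Csf1r* separated the groups for 4 of 9 genes, *Spic*, *Slc40a1*, *Vcam1*, and *Cd5l*, with the higher ratio in *Trpc1*-/-, against 5.33% of tested genes. The ratio to *Adgre1* did so for 3 of 9, *Spic*, *Vcam1*, and *Cd5l*, against 1.02%. *Slc40a1* per *Csf1r* was 1.23, 1.23, 1.24, and 1.14 in WT replicates 1 to 4 and 1.71, 1.54, and 1.89 in *Trpc1*-/- replicates 1 to 3. Thus WT replicate 1, which was low for the CPM of both genes, was level with the other WT samples in this ratio. Per *Adgre1* it was not: *Slc40a1* was at 3.82, 3.01, 3.04, and 3.06 in WT replicates 1 to 4. In *Trpc1*-/- replicates 1 to 3 that ratio was 3.97, 4.07, and 3.72, so the groups overlapped through WT replicate 1. *Cd5l* per *Adgre1* was 0.429, 0.440, 0.455, and 0.306 in WT and 0.618, 0.555, and 0.548 in *Trpc1*-/-. For *C1qa*, *C1qb*, *Mrc1*, and *Cd163* the ratios to either gene overlapped between groups. *Csf1r* and *Adgre1* had the lowest logFC of the members, at 0.00068 and 0.20. Dividing by them therefore places the ratios of the other members higher in *Trpc1*-/- by construction. These ratios are descriptions and were not tested, and they do not depend on library scaling.

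**Figure D3:**
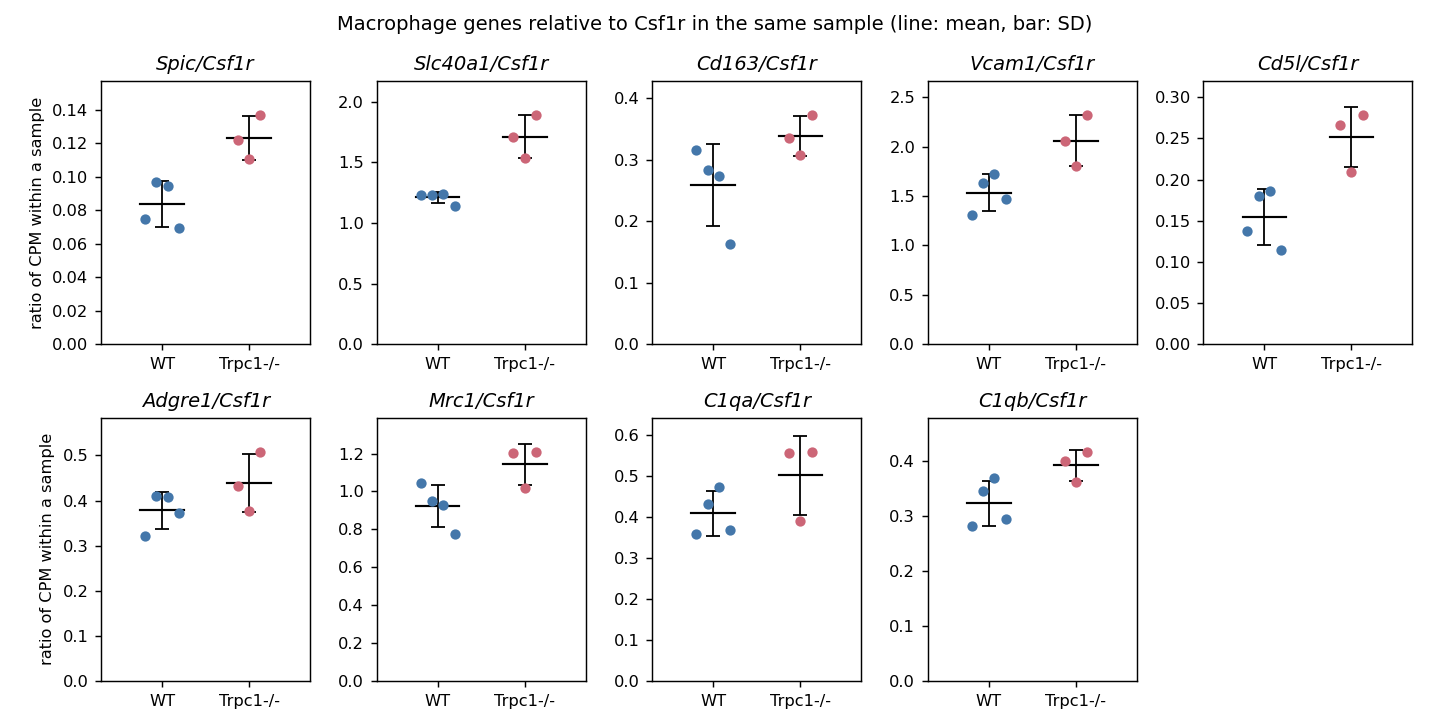
CPM of each of the other 9 genes divided by *Csf1r* CPM in the same sample (axis from 0), with 1 point per sample, a line at each group mean, and a bar of 1 SD to each side. The groups are apart for *Spic*, *Slc40a1*, *Vcam1*, and *Cd5l* and overlap for the other 5 genes.

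Levels between genes were compared per kilobase of exon (CPM per kilobase). In WT the order of the means was *C1qa* (64.1), *C1qb* (48.4), *Vcam1* (28.3), *Csf1r* (28.1), *Mrc1* (23.2), *Slc40a1* (21.8), *Adgre1* (19.1), *Cd5l* (12.3), *Cd163* (7.50), and *Spic* (3.55). The ranges over the 4 WT samples overlapped for each pair of neighbors from *Vcam1* to *Cd5l* and for *C1qa* with *C1qb*, while *C1qb* was apart from *Vcam1*, *Cd5l* from *Cd163*, and *Cd163* from *Spic*. Compared within each sample, *C1qa* was above *C1qb*, *Csf1r* above *Mrc1*, *Slc40a1* above *Adgre1*, and *Adgre1* above *Cd5l* in all 4 WT samples. *Mrc1* was above *Slc40a1* in 3 of the 4 and *Vcam1* above *Csf1r* in 2. In *Trpc1*-/- the order differed in that *Csf1r*, *Mrc1*, and *Slc40a1* were reversed, with *Slc40a1* (30.8) above *Mrc1* (29.1) and *Mrc1* above *Csf1r* (28.1). The ranges of *Slc40a1* and *Mrc1* and those of *Mrc1* and *Csf1r* overlapped. Within samples *Slc40a1* was above *Mrc1* in 3 of the 3 *Trpc1*-/- samples and *Mrc1* above *Csf1r* in 2. *Spic* was the lowest in both groups, at 5.19 CPM per kilobase in *Trpc1*-/-.

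The genes whose pattern was most like each member were taken by the root mean square (RMS) difference of centered log2 CPM over the 7 samples. For *Slc40a1* these were *Bnip3l* (RMS difference 0.0349), which encodes the mitophagy receptor that clears mitochondria from reticulocytes, its pseudogene *Bnip3l-ps* (0.0459), and *H2-Ab1* (0.0465), a chain of MHC class II. *Bnip3l* went from 212 to 297 CPM, and reads of the gene and its pseudogene may be hard to separate. For *Cd5l* they were the processed pseudogene *Gm10709* (0.0798), *Hmox1* (0.0812), which encodes the inducible heme oxygenase, and *Bpgm* (0.110), which encodes the enzyme that makes 2,3-bisphosphoglycerate in red cells. *Spic* was closest to the antisense gene *Asb17os* (0.0657), to *Aldh1a1* (0.0697), which encodes a retinaldehyde dehydrogenase, and to *Blvrb* (0.0882), which encodes a biliverdin reductase. Genes close to *Mrc1* were *Fam210b* (0.0202), which encodes a mitochondrial protein, and *Cenpk* (0.0254), which encodes a protein of the centromere.

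Among the general macrophage genes, *Csf1r* was closest to *Flna* (0.0221), *Inpp5d* (0.0279), and *Arhgef6* (0.0281), of which *Inpp5d* encodes the phosphatase SHIP1 of blood cells. *Adgre1* was closest to *Rpl10-ps6* (0.0369), *Apoe* (0.0409), and *Sephs2* (0.0414) and *C1qa* to *Timm10* (0.0483), *Rpl19-ps11* (0.0510), and *Nqo1* (0.0566). Genes close to *C1qb* were *Sf3b5* (0.0283) and *Dynlt1b* (0.0301). *Vcam1* was closest to *Gm10288* (0.0368), *Rpl11* (0.0398), and *Gm13160* (0.0445), and *Cd163*, whose neighbors were the least close, to *4930519L02Rik* (0.0925), *Nrip3* (0.108), and *Trarg1* (0.112). Genes near *Spic*, *Slc40a1*, and *Cd5l* thus included genes of heme and red cell biology. Between the members themselves, the RMS difference of the 45 pairs ran from 0.0872 to 0.434, with a median of 0.202.

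Of 20 further genes for the steps of heme and iron handling, 18 were tested (*Hpx* and *Hamp* were below the filter), 16 had the higher mean in *Trpc1*-/-, and their median logFC was 0.16. In edgeR 0 of them were called, while 3 were higher and 0 lower with an unadjusted p under 0.05, against 4.51% and 5.49% of tested genes. DESeq2 called 1, *Hmox1*, against 1.79% of tested genes. *Hmox1*, which opens the heme ring, was at 47.3, 78.3, 83.9, and 58.9 CPM in WT and at 122, 100, and 136 CPM in *Trpc1*-/-. The groups did not overlap, and the logFC of 0.83 ± 0.21 (SE) was above that of each of the 10 members, at an adjusted p of 0.395 in edgeR and 0.0153 in DESeq2. *Blvrb*, which acts on the biliverdin that heme oxygenase makes, was at 67.6, 105, 111, and 96.2 CPM in WT and 153, 120, and 138 CPM in *Trpc1*-/-, again without overlap and with a logFC of 0.53 ± 0.17 (SE). *Slc48a1*, the transporter that moves heme out of the phagolysosome, was the other gene without overlap, with a logFC of 0.26 ± 0.11 (SE), and was named after its values were seen. *Ftl1*, the ferritin light chain, and *Ncoa4*, the receptor that sends ferritin to lysosomes, had logFC of 0.35 and 0.32 with overlapping groups, and of 0.22 and 0.17 without WT replicate 1. Without WT replicate 1 the median of the list was 0.10.

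All 16 genes for contacts within the island and engulfment of expelled nuclei were tested, of which 12 had the higher mean in *Trpc1*-/-, with a median logFC of 0.15. EdgeR called 0, while 4 were higher (background 4.51%) and 0 lower (5.49%) with an unadjusted p under 0.05. DESeq2 called 1, *Siglec1* (background 1.79%). *Siglec1* encodes sialoadhesin (CD169), a marker of island macrophages in marrow. It was at 27.2, 27.2, 26.3, and 31.1 CPM in WT and at 36.1, 36.5, and 37.6 CPM in *Trpc1*-/-. WT replicate 1 did not stand apart for this gene, the groups did not overlap, and the logFC of 0.39 ± 0.08 (SE) had adjusted p of 0.381 (edgeR) and 0.0011 (DESeq2). *Timd4*, a receptor for phosphatidylserine, was low at 3.02 ± 1.14 CPM (SD, n = 4) in WT and 4.95 ± 0.811 CPM (SD, n = 3) in *Trpc1*-/-, without overlap and with a logFC of 0.70 ± 0.30 (SE). *Dnase2a*, the nuclease that digests engulfed nuclei, was the other gene without overlap, named after its values were seen, with a logFC of 0.23 ± 0.07 (SE). *Icam4*, an adhesion molecule on erythroblasts, had a logFC of 0.48 with overlapping groups. *Palld*, which encodes a cytoskeletal protein, had a logFC of -0.32 that became 0.03 without WT replicate 1.

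In the list of *Csf1r* ligands and macrophage identity genes, 10 of 14 had the higher mean in *Trpc1*-/-, the median logFC was 0.10, and 0.01 without WT replicate 1. EdgeR and DESeq2 each called 0, with 1 gene higher and 1 lower at an unadjusted p under 0.05 in edgeR, where 4.51% and 5.49% of tested genes were. These were the ligands of *Csf1r*: *Il34* went from 4.73 ± 0.258 CPM (SD, n = 4) to 5.90 ± 0.751 CPM (SD, n = 3), with a logFC of 0.32 ± 0.12 (SE). *Csf1*, named after its values were seen, went from 45.6 ± 1.74 CPM (SD, n = 4) to 38.6 ± 3.60 CPM (SD, n = 3), with a logFC of -0.24 ± 0.08 (SE). The groups did not overlap for either ligand, and they differed in opposite directions. *Aif1*, which encodes IBA1, *Fcgr1*, the high-affinity IgG receptor, and *C1qc*, the partner of *C1qa* and *C1qb*, had logFC of 0.40, 0.36, and 0.29 with overlapping groups, and of 0.26, 0.20, and 0.12 without WT replicate 1.

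Genes, most of them receptors, listed as marks of resident macrophage subsets of marrow, spleen, liver, and synovium had a median logFC of the opposite sign, with no gene called. Of 12 genes, 10 were tested (*Marco* and *Clec4f* were below the filter), 3 had the higher mean in *Trpc1*-/-, and the median logFC was -0.09, or -0.17 without WT replicate 1. EdgeR and DESeq2 each called 0, with 0 genes higher and 1 lower, *Lyve1*, at an unadjusted p under 0.05 in edgeR, beside 5.49% of tested genes lower. *Lyve1*, the hyaluronan receptor of perivascular macrophages and lymphatic vessels, was at 15.9, 14.3, 13.6, and 9.85 CPM in WT and 10.6, 9.07, and 10.8 CPM in *Trpc1*-/-, where WT replicate 4 overlapped the *Trpc1*-/- samples. *Stab1*, a scavenger receptor, and *Folr2*, a folate receptor, had logFC of -0.27 and -0.27, and *Cd209f*, a lectin, 0.40, all with overlapping groups. For *Stab1* the logFC was -0.16 without WT replicate 1. *Cd163* (logFC 0.42), *Mrc1* (0.32), *Siglec1* (0.39), and *Timd4* (0.70), also receptors of macrophages, stood in other lists and were higher in *Trpc1*-/-. The negative median therefore describes this list alone and not resident macrophage receptors in general. The difference between this list and the 10 members was not tested.

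**Figure D4:**
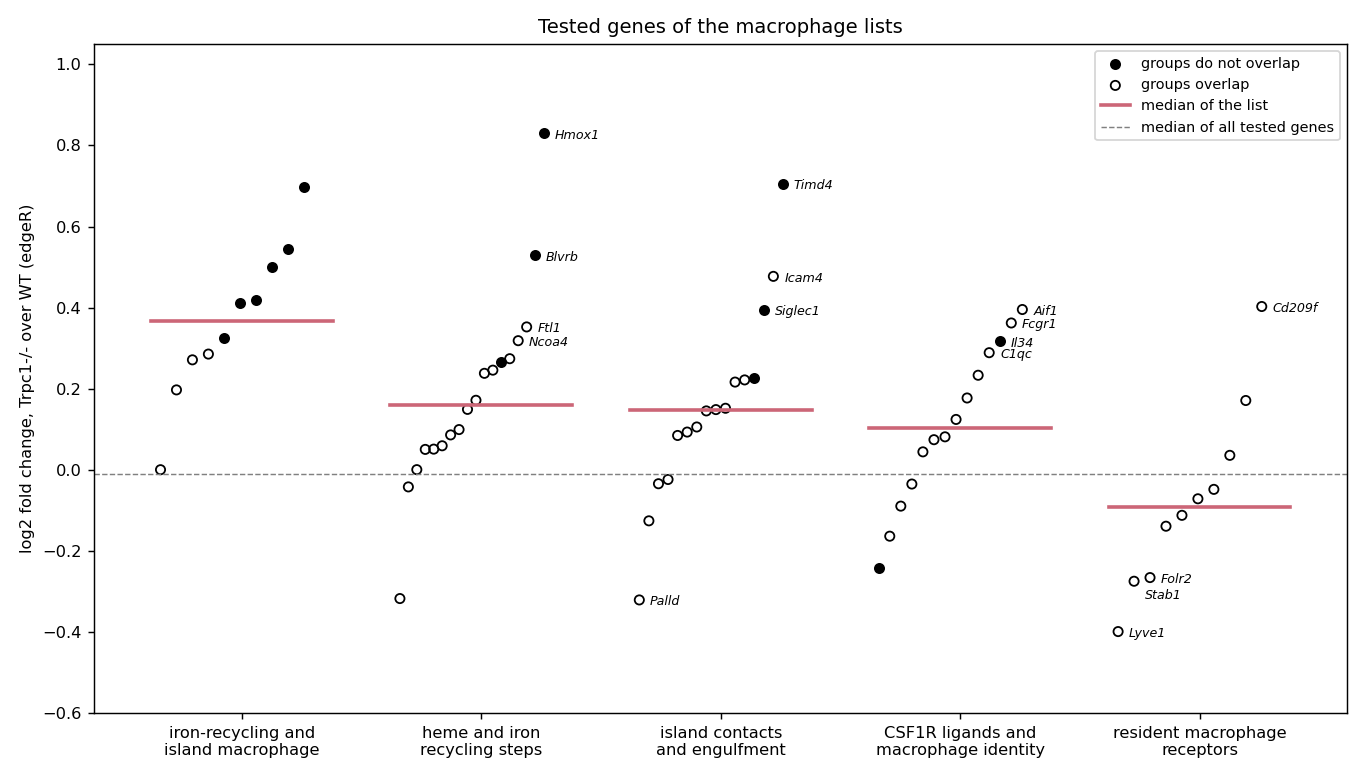
LogFC (*Trpc1*-/- over WT, edgeR) of each tested gene in the 5 macrophage lists, with filled points for genes whose groups do not overlap, a bar at each list median, and a dashed line at the median of all tested genes. Medians run from 0.37 for the 10 members to -0.09 for the resident macrophage receptors, and *Hmox1* is the highest point.

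Transcripts of other cells also differed between the groups in their levels. All 14 matched erythroid markers of a list of 15 had the higher mean in *Trpc1*-/-, with a median logFC of 0.41. DESeq2 called 4 of them (background 1.79%) and edgeR 0, with 10 higher at an unadjusted p under 0.05 in edgeR (background 4.51%). Their summed CPM was between 19806 and 36599 in WT and between 42237 and 57469 in *Trpc1*-/-, without overlap, led by the globin gene *Hbb-bs* at 9892 ± 2682 CPM (SD, n = 4) and 16891 ± 3083 CPM (SD, n = 3). Without WT replicate 1 the erythroid median was 0.36. The part of erythroid cells in the values of *Spic*, *Slc40a1*, *Hmox1*, and the other recycling genes was not tested, and erythroid cells themselves express *Slc40a1*.

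Neutrophil markers had the higher mean in 9 of 9, with a median logFC of 0.12 that was -0.13 without WT replicate 1. They summed to between 5491 (WT replicate 1) and 17420 CPM in WT and between 12862 and 16864 in *Trpc1*-/-, led by *S100a9*. Monocyte markers summed to between 1200 and 2784 CPM in WT, again lowest in replicate 1, and between 1920 and 2289 in *Trpc1*-/-, led by *Chil3*. Both ranges overlapped, as *Csf1r* and *Adgre1* did. Endothelial markers, bearing on *Vcam1*, had the higher mean in 1 of 9 and summed to 430 to 461 CPM in WT and 390 to 437 CPM in *Trpc1*-/-, led by *Vwf*. Marrow stromal markers, also bearing on *Vcam1*, had the higher mean in 5 of 8 and summed to 853 to 895 CPM in WT and 920 to 957 CPM in *Trpc1*-/-, without overlap, led by *Cxcl12*. DESeq2 called 2 of the 8 as higher and 0 as lower (background 1.79% in either direction), and edgeR called 0. Before adjustment, edgeR's p was below 0.05 for 2 higher markers (background 4.51%) and 2 lower ones (5.49%). Groups did not overlap for 3 higher markers and 1 lower, *Pdgfrb*. *Cxcl12* went from 443 to 511 CPM, whereas *Pdgfra*, *Pdgfrb*, and *Foxc1*, named after their values were seen, had logFC of -0.28, -0.28, and -0.27. The higher sum therefore does not describe every marker of this list. The part of stromal cells in the *Vcam1* values was not tested.

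Chondrocyte markers had the lower mean in *Trpc1*-/- for 9 of 9, with a median logFC of -0.43. DESeq2 called 1 (background 1.79%) and edgeR 0, and 3 were lower at an unadjusted p under 0.05 in edgeR (background 5.49%). They summed to between 5794 and 6336 CPM in WT and to 3346, 6100, and 3592 CPM in *Trpc1*-/- replicates 1 to 3, led by *Col2a1*. *Trpc1*-/- replicate 2, the sample at the WT level of chondrocyte markers, was also the lowest of its group for 9 of the 10 macrophage genes. Osteoblast markers, led by *Col1a1*, had the lower mean in 7 of 7. They summed to 7560 to 13693 CPM in WT and to 5955, 10288, and 6113 CPM in *Trpc1*-/- replicates 1 to 3. Osteoclast markers, a further lineage dependent on CSF1R and led by *Mmp9*, summed to 910 to 1740 CPM in WT and 1077 to 1399 CPM in *Trpc1*-/-. B cell markers had the higher mean in 6 of 6 (led by *Cd79b*, median logFC 0.39), T and NK cell markers in 6 of 6 (led by *Nkg7*, 0.35), and dendritic cell markers in 2 of 5 (led by *Siglech*, -0.0070). Over all tested genes, 48.1% had a logFC above 0. Without WT replicate 1 the medians were 0.22 for B cells, 0.22 for T and NK cells, and -0.0019 for dendritic cells. How much of the differences in the macrophage genes went with the makeup of the pooled tissue was not tested.

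**Figure D5:**
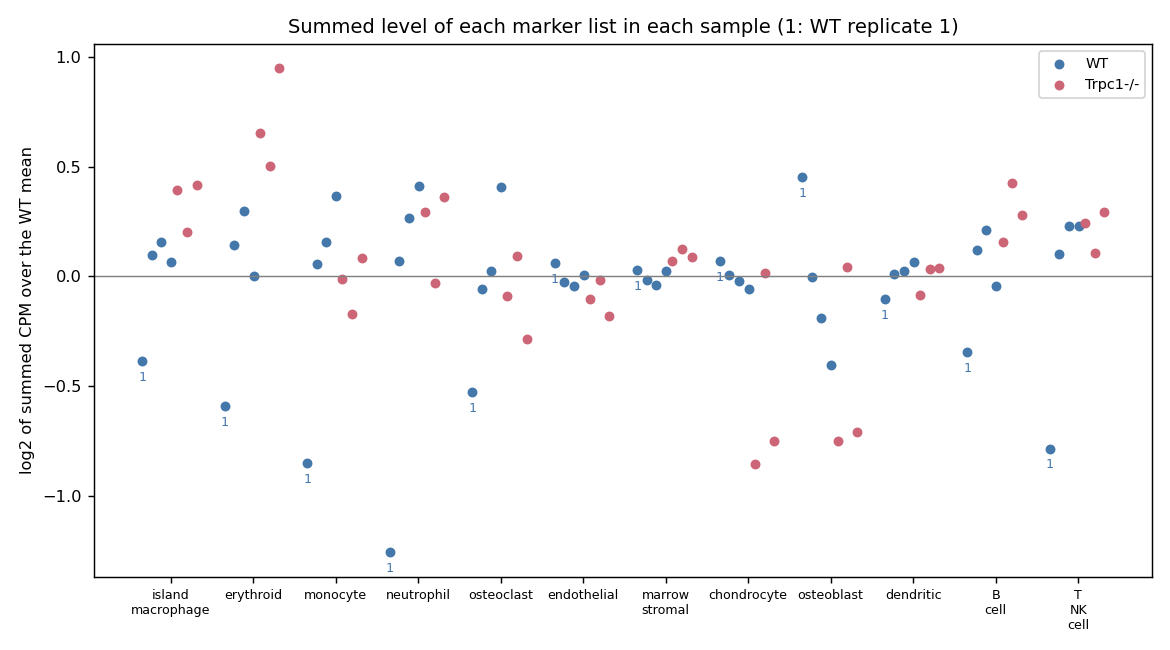
Summed CPM of the 10 macrophage genes and of the markers of 11 other cell types in each of the 7 samples, as log2 of the ratio to the WT mean, with WT replicate 1 marked by its number. Erythroid and marrow stromal sums of all 3 *Trpc1*-/- samples lie above those of the 4 WT samples, *Trpc1*-/- replicates 1 and 3 are low for chondrocyte markers, and WT replicate 1 is low for neutrophil and monocyte markers.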

How the data were processed

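RNA-Seq was performed on 7 pooled knee samples, 4 WT and 3 *Trpc1*-/-. After depletion of ribosomal RNA and stranded paired-end sequencing, the authors aligned reads to GRCm38 and deposited estimated counts per gene, whole numbers and not normalized. The submitters' processing notes name cutadapt 2.5, HISAT2 2.1.0, and StringTie 2.0.3. Because such counts are derived from coverage, reads shared with pseudogenes or paralogs were assigned before deposit.

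Genes above 1 CPM in at least 2 samples were tested (16429). Counts were scaled by TMM and tested in R 4.3.3 by edgeR 4.0.16 (quasi-likelihood), with genotype as the one term and Benjamini-Hochberg adjustment over all tested genes at 0.05. SE were taken from the F statistic. Total counts per sample lay between 52142451 and 118254070. CPM from 3 counts, the floor for detection, were at most 0.0631, which covers counting error and no other source. Alternatives were DESeq2 1.42.0, limma-voom (limma 3.58.1), other scalings and filters, a replicate block, samples with mouse numbers below 1700, and leaving out each sample. The fits were tested on simulated data.

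Positions and exon lengths came from GENCODE M21, in which 55141 of 55401 gene IDs were found, and promoters from RefSeq. With samples of mouse numbers below 1700 alone, 2 WT and 3 *Trpc1*-/- remained. The members and lists were chosen with earlier results of these data known. Genes named were the members, *Trpc1*, the 4 largest logFC in size of each list, genes of a list called by edgeR or DESeq2, the 3 nearest genes per member, and the most abundant marker of each cell type, except where stated. Some genes covered by this rule are not reported here.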

Additional observations from a re-analysis of the deposited data

Results flagged for a closer look

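In the WT group, 1 sample lay far from the other 3 for 4 genes, by Dixon's ratio of its gap to the nearest sample over the range of the group, taken at its 95% critical value for 4 samples. The ratio was 0.962 for *Adgre1*, 0.885 for *Slc40a1*, and 0.833 for *Vcam1*, each for a low value in WT replicate 1, and 0.839 for *Palld*, for a high value in the same sample. Chance flags about 1 in 20 groups, and 27 groups were examined. Values of these genes without that sample are given with the results.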

How the results depend on the processing

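Of 240 refits of the 10 members, 223 kept direction and side of the threshold, 10 passed the threshold where edgeR on all samples did not, 7 turned sign, and 0 lost a call. All that turned sign were of *Csf1r*, which was -0.0090 with upper-quartile scaling and between -0.097 and 0.068 with 1 sample left out in edgeR, and in DESeq2 -0.093 without WT replicate 1, -0.012 without *Trpc1*-/- replicate 1, and -0.0034 without *Trpc1*-/- replicate 2. EdgeR called 0 genes, DESeq2 294, and limma-voom 1. With 1 sample left out, the count was 0 to 52 in edgeR (52 without WT replicate 1, 0 in each other fit) and 37 to 892 in DESeq2 (892, 62, 134, and 281 without WT replicates 1 to 4, and 84, 371, and 37 without *Trpc1*-/- replicates 1 to 3). Members called were 0 in edgeR, 1 in DESeq2, and 0 to 4 with a sample left out. The 4 were called by DESeq2 without WT replicate 1, the fit with 892 genes called. For the heme and iron list the numbers were 0, 1, and 0 to 3, for the island list 0, 1, and 0 to 3, and for resident receptors 0, 0, and 0 to 1. The highest counts of the heme and iron list and the island list came from that same fit. Members without overlap were 6 (6 also with DESeq2 size factors), 3 without TMM, and 6 to 9 with a sample left out, where 8.03% to 15.0% of tested genes did not overlap (9, at 15.0%, without *Trpc1*-/- replicate 2). Leaving out a sample cannot lower this count, so those counts do not show whether it depends on a sample. *Trpc1* had a logFC of -0.54 to -0.37 with a sample left out and passed the threshold without *Trpc1*-/- replicate 2 in DESeq2 (logFC -0.52, adjusted p = 0.0291). The cause of these differences was not tested. Samples with the same replicate number share the number alone, and their deviations had correlations of -0.348, -0.205, and -0.0439. With a replicate block, DESeq2 called 54 genes and edgeR 0, and 0 members were called by either. With 3 and 4 pooled samples, edgeR's 95% intervals of the members were 0.46 to 0.97 wide on the log2 scale.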

Other observations

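*C1qa* and *C1qb*, whose products assemble into the same protein, kept a nearly fixed ratio of CPM in WT, at 1.28, 1.25, 1.29, and 1.26 in replicates 1 to 4, although WT replicate 1 was low for both genes. In *Trpc1*-/- the ratio was 1.39, 1.08, and 1.34 in replicates 1 to 3, so that replicate 2 lay below every WT sample and the other two lay above. The group means were both 1.27, with an SD of 0.0175 (n = 4) in WT and 0.169 (n = 3) in *Trpc1*-/-. These values were noticed after the data were seen and were not tested.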
